A study of Mus musculus with 8 samples.

Results

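Cathepsins, the Ctla2 proteins and the serpins form a set of proteases and protease inhibitors, and their transcripts were compared here between mouse embryonic stem cells kept in sodium butyrate and the same cells kept in leukaemia inhibitory factor (LIF). The members were all genes whose name on the array begins with Cts, is Ctla2a or Ctla2b, or begins with Serpin followed by a clade letter and a number. They numbered 77 genes of 27670 named on the array, on 99 of 41174 probes. Among them were 21 cathepsins, the pair Ctla2a and Ctla2b, and 54 serpins.

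Cathepsins are proteases, most of them cysteine proteases, that digest protein in the lysosome. Ctla2a and Ctla2b resemble the propeptide of cathepsin L-like proteases, the stretch that keeps the enzyme inactive until it is removed, and inhibit such enzymes. Rodents carry a further group of cathepsins that is expressed in the placenta and lies beside the Ctla2 genes on chromosome 13. Serpins trap serine proteases by a suicide mechanism, although several, such as the collagen chaperone Serpinh1, have lost that activity. The serpins of clade B stay inside cells and are expanded in rodents on chromosomes 13 and 1.

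The cells were of R1, an established mouse embryonic stem cell line, and grew on gelatin with serum replacement. The butyrate group held 4 samples grown for 15 passages without LIF and with sodium butyrate at 0.2 mM. Butyrate is a fatty acid that blocks histone deacetylases. In the LIF group, 4 samples were kept with the cytokine, which holds these cells undifferentiated, and without feeder cells. Butyrate and the absence of LIF came together, so their parts cannot be told apart, and 1 cell line was used. The labels give no passage number for the LIF samples, so a difference in time in culture cannot be told apart either. The labels call the samples independent but do not name separate cultures, so a p-value here reflects only the spread among these samples, which may be technical.

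Each of 4 2-colour Agilent arrays carried a butyrate sample in Cy5 and its same-numbered LIF sample in Cy3. Dyes were never swapped, and an effect of dye on a ratio cannot be told apart from that of the culture condition. The median spot signal was 110.0 to 111.4 in butyrate samples and 62.8 to 66.0 in LIF samples, and the share of spots well above background was 62.7 to 63.9% in butyrate samples and 57.9 to 61.2% in LIF samples. Of the embryonic stem cell markers fixed for the check, 9 were on the array and detected in both groups. Their summed intensity was 60168 to 67617 in butyrate and 94526 to 99493 in LIF. In butyrate 8 of them were lower, led by Esrrb with a log2 ratio of -1.58 ± 0.05. The other marker, Nanog, chosen later, was higher in butyrate at 0.23 ± 0.05. Intensities are in arbitrary units, contain the offset of 50 that was added in background correction, and are not set against each other between genes. A sum over markers leans on its brightest probes. In the stem cell sum Zfp42, chosen later, read 31547 to 36304 in butyrate and 35488 to 39911 in LIF. Since the RNA is of whole cultures, fewer cells of a type and less RNA per cell cannot be told apart.

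The promoters of the genes with the highest ratios among those with an entry are shown first, since the Ctla2 pair and the Serpinb9 paralogs turned out to share letters near their starts. RefSeq windows (GRCm38.p6) run from 250 bases before a gene's start to 50 after it, and 63 of the 77 members had one; Ctsb and Ctsh had none. Capitals mark TGACGT, the core of the cAMP response element, TGACTCA, an AP-1 site, or CACGTG, an E-box of the kind that the lysosomal regulators Tfeb and Tfe3 can bind. These motifs were picked after the windows had been read, and each was searched on both strands. The reverse of TGACGT reads ACGTCA, that of TGACTCA reads TGAGTCA, and CACGTG is its own reverse. Ctla2a lies on the minus strand at chr13:60936576-60936875, with a further start whose window is not printed, and Ctla2b on the minus strand at chr13:60897398-60897697. Serpinb9d lies on the plus strand at chr13:33192705-33193004, Serpinb9e on the plus strand at chr13:33249358-33249657 and Serpinb9g on the plus strand at chr13:33484540-33484839. Serpinb9c, on the minus strand at chr13:33159705-33160004, is their neighbour, not well above background in LIF. Ctsd, on the minus strand at chr7:142387778-142388077, stands for the lysosomal cathepsins with an E-box.
Ctla2a: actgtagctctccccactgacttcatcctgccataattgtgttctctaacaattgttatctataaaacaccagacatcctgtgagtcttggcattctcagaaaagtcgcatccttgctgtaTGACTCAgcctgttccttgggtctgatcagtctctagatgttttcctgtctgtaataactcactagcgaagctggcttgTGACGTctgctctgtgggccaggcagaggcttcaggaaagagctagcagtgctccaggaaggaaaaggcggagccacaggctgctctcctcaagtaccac
Ctla2b: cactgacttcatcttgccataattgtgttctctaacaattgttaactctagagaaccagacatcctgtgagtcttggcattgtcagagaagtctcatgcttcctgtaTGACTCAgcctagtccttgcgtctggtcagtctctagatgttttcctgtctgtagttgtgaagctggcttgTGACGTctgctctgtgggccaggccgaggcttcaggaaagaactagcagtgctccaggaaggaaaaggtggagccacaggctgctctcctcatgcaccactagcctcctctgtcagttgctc
Serpinb9d: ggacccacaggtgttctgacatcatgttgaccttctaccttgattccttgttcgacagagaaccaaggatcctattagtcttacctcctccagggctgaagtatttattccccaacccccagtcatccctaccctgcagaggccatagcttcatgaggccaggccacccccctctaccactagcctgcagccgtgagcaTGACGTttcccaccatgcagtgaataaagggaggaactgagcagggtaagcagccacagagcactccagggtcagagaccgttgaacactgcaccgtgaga
Serpinb9e: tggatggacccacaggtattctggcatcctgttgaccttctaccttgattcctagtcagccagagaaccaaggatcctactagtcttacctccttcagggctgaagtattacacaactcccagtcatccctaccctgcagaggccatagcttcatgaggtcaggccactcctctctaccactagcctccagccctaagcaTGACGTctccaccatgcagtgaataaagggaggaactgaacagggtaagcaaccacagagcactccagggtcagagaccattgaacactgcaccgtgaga
Serpinb9g: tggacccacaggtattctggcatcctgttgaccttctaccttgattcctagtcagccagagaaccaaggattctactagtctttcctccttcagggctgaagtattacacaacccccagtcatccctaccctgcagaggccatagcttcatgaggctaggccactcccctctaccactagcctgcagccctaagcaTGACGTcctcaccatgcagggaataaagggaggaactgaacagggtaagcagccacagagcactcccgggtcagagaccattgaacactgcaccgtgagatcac
Serpinb9c: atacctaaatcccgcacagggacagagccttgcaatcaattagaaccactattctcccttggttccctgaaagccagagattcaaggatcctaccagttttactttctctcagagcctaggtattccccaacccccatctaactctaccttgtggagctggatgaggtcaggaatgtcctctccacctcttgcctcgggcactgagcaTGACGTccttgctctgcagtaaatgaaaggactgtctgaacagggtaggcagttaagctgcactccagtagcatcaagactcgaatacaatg
Ctsd: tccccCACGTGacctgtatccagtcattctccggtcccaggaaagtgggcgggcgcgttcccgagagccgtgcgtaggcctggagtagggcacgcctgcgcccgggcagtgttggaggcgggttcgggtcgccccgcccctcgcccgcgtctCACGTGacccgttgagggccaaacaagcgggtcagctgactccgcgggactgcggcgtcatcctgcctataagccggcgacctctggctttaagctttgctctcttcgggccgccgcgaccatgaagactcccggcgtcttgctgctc

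Counted from 1 at the 5′ end of each window, TGACGT began at base 201 in Ctla2a, 179 in Ctla2b, 200 in Serpinb9d, 201 in Serpinb9e, 197 in Serpinb9g and 209 in Serpinb9c. It was found in 5 of the 9 members with a window that were at least 2-fold higher in butyrate, in 2 of the other 54 members and in 7.51% of all 32851 windows. TGACTCA began at base 122 in Ctla2a and 108 in Ctla2b, and 5.2% of all windows held it or its reverse. No printed motifs overlapped. These genes share sequence by descent: the Ctla2 windows were identical at 256 of 278 aligned bases (92.1%), those of Serpinb9d and Serpinb9e at 92.9%, of Serpinb9d and Serpinb9g at 93.2% and of Serpinb9e and Serpinb9g at 95.9%. Serpinb9c and Serpinb9d were identical at 75.9% of aligned bases, with the TGACGT kept. CACGTG was found in 3 of the 8 lysosomal cathepsins with a window, Ctsd at bases 6 and 153, Ctsf at base 172 and Ctsl at base 15, and in 7.15% of all windows. A match is a description of the letters and does not show a bound site.

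Of the 77 members, 37 were bright enough to test, meaning that the spot stood well above background in 3 or more arrays for at least 1 of the groups. In butyrate 25 of them were higher, 7 were lower and 5 did not pass (limma, adjusted p under 0.05). So many genes moved on these arrays that 74.9% of the 17198 genes tested passed. Of all genes tested, 41.7% were higher and 33.2% lower. The median log2 ratio of butyrate over LIF was 0.31 over the tested members and 0.03 over all genes. At least 2-fold higher were 12 members, against 4.97% of all genes, and at least 2-fold lower were 0, against 1.97%. Among these 12 were the Ctla2 pair, Serpine2, Serpinh1, Serpinf1, Serpinb9d, Serpinb9e, Serpinb9g, Ctsh, Ctsb and Ctsc. A gene was read from its brightest probe. With the probes of a gene averaged, the log2 ratios of Ctsb and Serpinf1 were 0.76 and 0.80, which is less than 2-fold.

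The filter admitted 8 members through the butyrate samples alone, namely Ctla2b, Serpinb9g, Serpinb9, Serpinb9c, Serpinb8, Serpina5, Serpinf2 and Ctsg, and 0 through the LIF samples alone. Among the 29 members well above background on at least 3 arrays of both groups, 19 were higher and 7 lower, against 41.0% and 35.2% of the 15862 genes that met the same condition. Without loess and with each array centred on its median, the median of all genes moved by 0.37, and 92.4% of all calls were for higher genes, against 55.7% with loess. There 23 members were higher and 1, Ctsw, was lower. Of the 37 tested members, 32 lay on the same side of the median of all genes under both scalings. Of the other members, 40 were too dim to test and 31 of these were never well above background on any array.

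**Figure D1:**
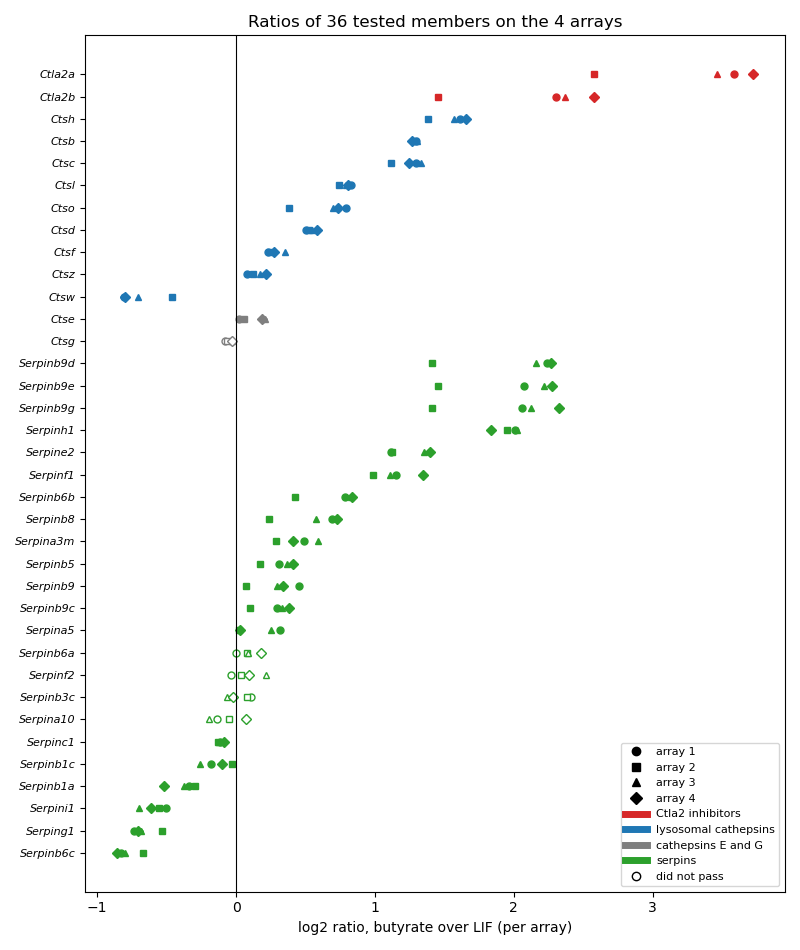
Each point is the log2 ratio of butyrate over LIF on 1 array, with 4 points for each of 36 tested members; colours give the group, open symbols the 5 members that did not pass. Ctla2a lies farthest to the right, 8 of 9 lysosomal cathepsins lie right of 0, and array 2 (squares) is the leftmost point of several members with high ratios; Serpinb1a and Serpinc1, left of 0 here, lay right of it without loess.

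Ctla2a, an inhibitor of cathepsin L-like proteases known from the mouse decidua and placenta, had the highest ratio of the tested members. Its intensity was 1145, 1123, 1066 and 1268.5 in butyrate samples 1 to 4, against 95.7, 188.1, 96.6 and 96.1 in LIF samples 1 to 4. The groups did not overlap, and LIF sample 2 lay apart from the other LIF samples. The log2 ratio was 3.34 ± 0.52 (SD, n = 4 arrays), a fold of 10.1 with an adjusted p of 8.01e-07. Ctla2a stood in place 8 from the highest among all 17198 genes. Ctla2b, its close paralog, read 459.9, 409.0, 418.7 and 488.9 in butyrate, against 93.1, 149.3, 81.3 and 81.9 in LIF. No LIF sample gave it a signal well above background, so it was at least 4.52-fold higher in butyrate (log2 ratio 2.18 ± 0.50, adjusted p = 6.4e-06). Whether a probe of either gene also binds the other transcript was not tested.

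The size of these folds depended on the background. With a smaller normexp offset of 16 the log2 ratio was 4.01 for Ctla2a and 2.91 for Ctla2b, and with the scanner software's own ratio it was 5.66 and 6.45. Without array 2 the ratios were 3.59 and 2.42.

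**Figure D2:**
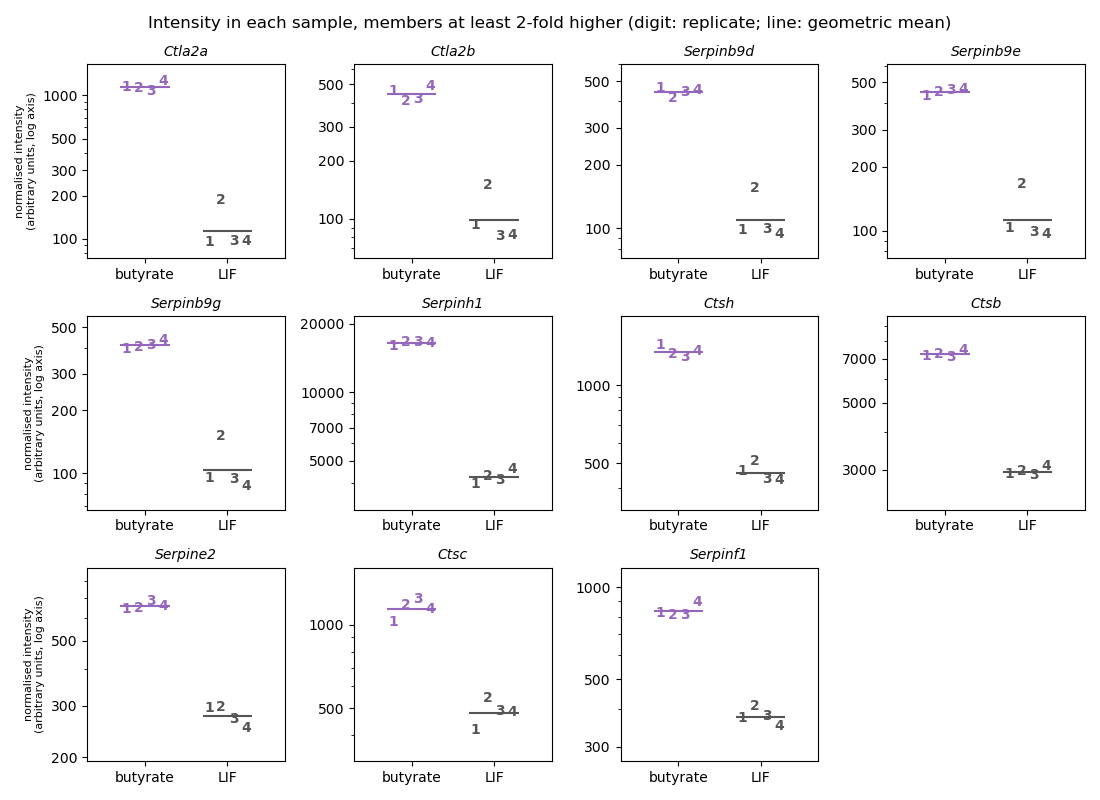
Normalised intensity (arbitrary units, log axis, a separate range in each panel) of 11 members at least 2-fold higher in butyrate, with butyrate samples left and LIF samples right; a digit is the replicate and a line the geometric mean of 4 samples. The members were picked for being at least 2-fold higher, and in every panel their groups are apart. LIF sample 2 stands above the other LIF samples for Ctla2a, Ctla2b and the Serpinb9 genes.

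LIF sample 2 was the highest of the LIF samples in 10 of the 12 members that were at least 2-fold higher. The same held for 557 of the 854 genes at least 2-fold higher (65.2%), and for 29.2% of all genes tested. Over the geometric mean of the other LIF samples it was 1.96-fold higher for Ctla2a, 1.75-fold for Ctla2b, 1.61-fold for Serpinb9d, 1.66-fold for Serpinb9e and 1.64-fold for Serpinb9g. For Ctsh it was 1.15-fold. In the same sample Cdx2, a factor of the trophoblast lineage, was 1.64-fold over the other LIF samples, Postn, a matrix protein, 1.84-fold, and Krt7 0.951-fold. Butyrate sample 2 was at 0.970 of the other butyrate samples for Ctla2a. All 37 tested members kept their side of the threshold without replicate 2.

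The cathepsins listed here as lysosomal, Ctsw among them, were next. Of 11 members on the array, 9 were tested, 8 were higher and 1, Ctsw, was lower in butyrate, with a median log2 ratio of 0.65. All 9 were detected in both groups. Ctsh, an aminopeptidase, read 1426, 1324, 1291.5 and 1355 in butyrate, against 467.4, 509.3, 434.3 and 429.8 in LIF. Its log2 ratio was 1.55 ± 0.12, a 2.94-fold difference (adjusted p = 1.07e-07). Ctsb, an abundant cysteine protease, read 7136, 7268, 7093 and 7444 in butyrate, against 2908, 2970 and 2880.5 in LIF samples 1 to 3 and 3088 in LIF sample 4. The log2 ratio was 1.29 ± 0.01, or 2.44-fold (adjusted p = 4.12e-08), the smallest SD of the 37 tested members. A further, dimmer probe of Ctsb gave a log2 ratio of 0.23. Ctsc, which activates the granule serine proteases of immune cells by trimming them, read 1025, 1179.8, 1233 and 1142 in butyrate, against 418.8, 544.3, 489.0 and 483.1 in LIF. It was 2.37-fold higher (log2 ratio 1.25 ± 0.09, adjusted p = 1.61e-07). For none of these enzymes, picked for being at least 2-fold higher, did the groups overlap. The share of all genes with groups apart is not given here.

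Ctsl, the enzyme that Ctla2 proteins inhibit, read 23916, 24187, 24091 and 24143 in butyrate, against 13463, 14446, 13949 and 13782 in LIF, a 1.73-fold difference (log2 ratio 0.79 ± 0.04, adjusted p = 4.1e-07). It lies in the same stretch of chromosome 13 as the Ctla2 pair. Ctso, a little studied cysteine protease, had a log2 ratio of 0.65 ± 0.18 and Ctsd, the main aspartic protease of the lysosome, 0.54 ± 0.03. Ctsf, a cysteine protease, had 0.27 ± 0.06 and Ctsz, a carboxypeptidase, 0.15 ± 0.06. Ctsf lies on chromosome 19, whose tested genes had a median of 0.18. For Ctsz the call was lost with the scanner's log ratio (0.09, adjusted p = 0.0834) and with the authors' value table.

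Ctsw, known from cytotoxic lymphocytes, was the lower member of the group. It read 116.8, 118.8, 124.8 and 118.1 in butyrate, against 204.3, 163.8, 203.5 and 205.8 in LIF. The groups did not overlap, and the difference was 1.62-fold (log2 ratio -0.69 ± 0.16, adjusted p = 1.65e-05). Ctsk of osteoclasts and Ctss of antigen-presenting cells were never well above background. Outside the lysosomal group, Ctse, an intracellular aspartic protease, had a log2 ratio of 0.12 ± 0.09 (adjusted p = 0.0367) with overlapping groups. Ctsg, a neutrophil granule protease, did not pass (-0.05 ± 0.02). Ctsa is a lysosomal cathepsin too, but it is listed on the array as Ppgb. It thus fell outside the rule and the counts of lysosomal cathepsins above. Ctsa did not pass (0.00 ± 0.06, adjusted p = 0.909).

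Macrophages are rich in lysosomal cathepsins, and 5 of the 14 macrophage markers on the array (Adgre1, C1qa, C1qc, Tyrobp and Spi1) were never well above background. The summed macrophage markers were at 1655 to 1682 in butyrate and 1543 to 1597 in LIF, and of 8 tested 2 were higher, led by Csf1r with a log2 ratio of 0.99 ± 0.31, and 1, Fcgr3, was lower (-0.37 ± 0.16). Markers of lymphocytes and mast cells summed to 1600 to 1694 in butyrate and 2581 to 2806 in LIF. Of 6 tested, 2 were lower, led by Lck, a kinase of T cells, with -1.20 ± 0.12. Cd3g, Cpa3, Tpsab1 and Il7r were never well above background, and the part of such cells in the Ctsw result was not tested.

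Other proteins of the lysosome went both ways. Of 30 tested, 17 were higher and 11 lower, with a median log2 ratio of 0.27. Lamp1, a membrane protein of the lysosome, had a log2 ratio of 1.10 ± 0.03 and Cd63, another membrane protein, 0.97 ± 0.07. The tested genes of chromosome 8, which holds Lamp1, had a median of 0.29. Tfe3, a transcription factor of lysosomal genes, was lower at -0.92 ± 0.12. Of 12 genes that sort enzymes to the lysosome, most of them on the mannose 6-phosphate route, 5 were higher and 6 lower (median -0.02). Scarb2, which carries glucocerebrosidase independently of that sugar, had -1.09 ± 0.07, and the adaptors Gga2 and Gga3 had -0.86 ± 0.05 and 0.62 ± 0.05. The cystatins are another family that inhibits cysteine cathepsins. Together with legumain, the kininogens and the fetuins they gave 8 tested genes, of which 3 were higher and 2 lower (median 0.05). Cstb, the cystatin of the cell interior, had 0.41 ± 0.04, while Ahsg and Kng1, which are secreted, had -0.82 ± 0.09 and -0.52 ± 0.14.

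The placental cathepsins gave no test at all. All 8 on the array (Cts3, Cts6, Cts7, Cts8, Ctsj, Ctsm, Ctsq and Ctsr) were too dim, and 6 were never well above background in either group. Ctsr was well above background on 2 arrays in butyrate and 0 in LIF, and Ctsm on 1 array in each. A difference in these genes was thus not detectable at this signal, and the contrast with the 9 tested lysosomal enzymes was not itself tested. With no filter on dim probes Ctsm passed as lower.

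Like these cathepsins, the Ctla2 pair and several Serpinb9 paralogs are known from the mouse placenta, so trophoblast markers were read as well. Of 16 markers on the array 8 were tested, and 7 were higher and 0 lower in butyrate, with a median log2 ratio of 1.27. Their summed intensity was 15668 to 18179 in butyrate and 3445 to 4071 in LIF. Cdx2 led with a log2 ratio of 2.77 ± 0.45, followed by the keratin Krt7 (2.59 ± 0.07) and the giant cell factor Hand1 (2.53 ± 0.20). Of the placental markers, Prl8a8, Tpbpa, Tpbpb, Synb and Psg17 were never well above background. Prl3b1 and Prl3d1 of the same list, chosen later, were well above background on 4 arrays in both groups. Their log2 ratios were -0.07 ± 0.03 (did not pass) and 0.14 ± 0.12 (adjusted p = 0.0298), each with overlapping groups. The part of trophoblast-like cells in the ratios of Ctla2a, Ctla2b and the Serpinb9 genes was not tested.

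**Figure D3:**
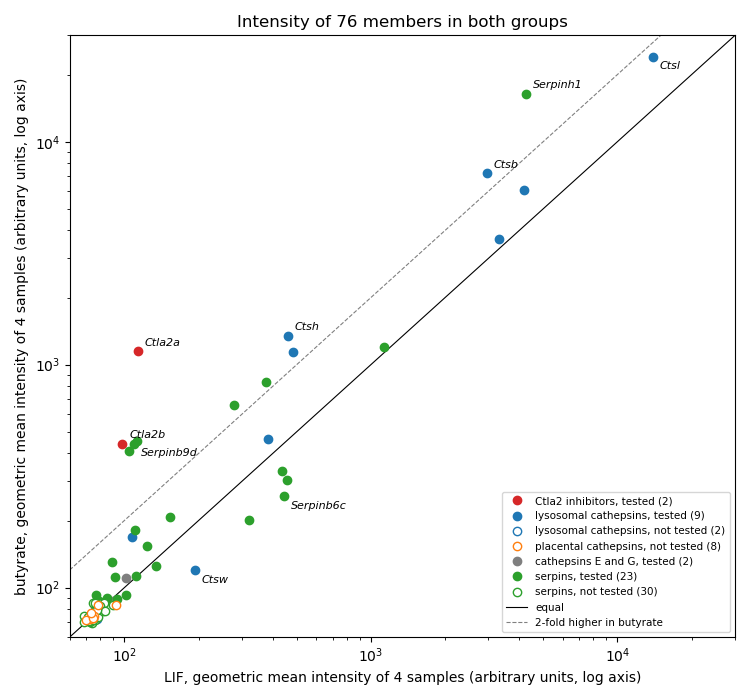
Geometric mean intensity of 4 samples in butyrate (vertical) against LIF (horizontal), both on log axes in arbitrary units, for 76 members; filled points were tested, and levels of different genes are not comparable. The 8 placental cathepsins (open orange) lie at the dim end among the untested serpins, while the tested lysosomal cathepsins other than Ctsw lie above the line of equal intensity.

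Serpins of clades C to I act mostly outside the cell. Of 10 on the array 8 were tested, and 4 were higher, 3 lower and 1 did not pass. Over all genes tested the shares were 41.7% higher and 33.2% lower. Among the 18 serpins of any clade well above background on at least 3 arrays of both groups, 9 were higher and 6 lower. For all genes with such signal the shares were 41.0% and 35.2%. Serpine2, which inhibits thrombin and urokinase, read 642.3, 646.2, 686.0 and 661.4 in butyrate, against 295.7, 296.2, 269.1 and 251.5 in LIF. It was 2.37-fold higher, with a log2 ratio of 1.25 ± 0.15 (adjusted p = 4.92e-07). Serpinh1 (Hsp47), a chaperone of procollagen in the endoplasmic reticulum, read 15985, 16594, 16679.7 and 16508 in butyrate, against 3964, 4299, 4106 and 4622 in LIF. It was 3.88-fold higher (log2 ratio 1.95 ± 0.09, adjusted p = 2.27e-08). Serpinf1 (PEDF), a secreted serpin that inhibits no protease, read 826.1, 810.1, 813.8 and 891.1 in butyrate, against 372.6, 408.3, 378.3 and 349.9 in LIF. It was 2.22-fold higher (log2 ratio 1.15 ± 0.15, adjusted p = 8.12e-07). A further probe of Serpinf1 gave 0.45, and the tested genes of its chromosome 11 had a median of 0.21.

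Among the 3 lower serpins of these clades, Serping1, the inhibitor of complement C1, read 199.6, 199.96, 208.0 and 197.6 in butyrate, against 332.3, 290.0, 334.1 and 322.4 in LIF. It was 1.59-fold lower (log2 ratio -0.67 ± 0.09, adjusted p = 3.08e-06). Serpini1 (neuroserpin), an inhibitor of Plat in neurons, read 306.5, 318.0, 303.5 and 289.96 in butyrate, against 434.3, 466.5, 493.3 and 442.7 in LIF. It was 1.51-fold lower (log2 ratio -0.59 ± 0.09, adjusted p = 5.35e-06). Serpinc1, antithrombin, had -0.11 ± 0.02 (adjusted p = 0.0134) with overlapping groups; its dimmer probe gave 0.20, and without loess its ratio was 0.10. Serpinf2, the inhibitor of plasmin, did not pass (0.08 ± 0.11), and Serpind1 was too dim to test. Without loess neither Serping1 (-0.21, adjusted p = 0.104) nor Serpini1 (-0.06, adjusted p = 0.643) passed, though both stayed below the median of all genes.

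The proteases and receptors that these serpins meet were measured on the same arrays. Of 18 tested, 12 were higher and 3 lower, with a median log2 ratio of 0.42. Plat, the tissue plasminogen activator, had a log2 ratio of 2.25 ± 0.22 (4.76-fold, adjusted p = 1.42e-07). Like Lamp1, Plat lies on chromosome 8, with its median of 0.29. Lrp2, an endocytic receptor that takes up such complexes, had 1.90 ± 0.25, and the thrombin receptor F2r had 1.56 ± 0.12. Plau, its receptor Plaur, F2 and Proc were chosen after their values were seen. Plau was not well above background in LIF and was at least 1.54-fold higher, and Plaur had a log2 ratio of 0.66 ± 0.11. Of the 3 lower genes, F2, the gene of thrombin, had -1.25 ± 0.225 (adjusted p = 2.62e-06). Proc, the gene of protein C, had -1.01 ± 0.14 (adjusted p = 1.13e-06). Among 20 tested partners of collagen folding and crosslinking, 15 were higher and 4 lower (median 0.32). Bmp1, a procollagen proteinase, had 2.21 ± 0.16, the prolyl hydroxylase subunit P4ha2 2.19 ± 0.09, and the lysyl oxidase Loxl2 1.60 ± 0.04.

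Fibroblast markers moved with Serpinh1. All 16 were on the array, each well above background on at least 1 array, 15 were tested, and 13 were higher and 2 lower (median 0.91). They summed to 14786 to 15528 in butyrate and 3689 to 4193 in LIF. Col1a1, a chain of type I collagen and so a client of Serpinh1, led with a log2 ratio of 4.15 ± 0.16, followed by Postn (3.22 ± 0.47) and Col5a1 (1.86 ± 0.06). The part of fibroblast-like cells in these ratios was not tested. Endothelium, a source of Plat, had 8 markers tested, of which 2 were higher and 4 lower, led by Vwf with a log2 ratio of -1.59 ± 0.27 and Cd34 with 0.94 ± 0.09. Its 10 markers on the array summed to 2561 to 2856 in butyrate and 2697 to 3006 in LIF, with Tie1 and Emcn never well above background.

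Clade B holds the intracellular serpins, with 12 genes on chromosome 13 and 12 on chromosome 1. On chromosome 13, 10 were tested, 6 were higher, 3 lower and 1 did not pass. Among the 7 well above background on at least 3 arrays of both groups, 3 were higher and 3 lower. For all genes that met this condition the shares were 41.0% and 35.2%. Serpinb9 inhibits granzyme B, and its paralogs Serpinb9d, Serpinb9e and Serpinb9g stood together. Serpinb9d read 461.7, 414.9, 442.5 and 453.5 in butyrate, against 98.0, 156.1, 98.8 and 94.1 in LIF. Its log2 ratio was 2.02 ± 0.41, or 4.05-fold (adjusted p = 3.5e-06). Serpinb9e read 432.3, 453.3, 460.1 and 468.2 in butyrate, against 102.6, 165.5, 98.9 and 96.9 in LIF, for a log2 ratio of 2.00 ± 0.38 (4.01-fold, adjusted p = 2.4e-06). Serpinb9g read 395.1, 401, 410.0 and 436.4 in butyrate, against 94.7, 151.0, 94.3 and 87.1 in LIF, for 1.98 ± 0.40 (3.94-fold, adjusted p = 3.36e-06). In LIF the last was well above background on 2 arrays, and its other probe gave 1.19. The near-equal values of these paralogs come from separate probes, and whether those probes bind each other's transcripts was not tested. With the scanner's ratio the log2 ratios were 3.79, 3.66 and 4.50 for Serpinb9d, Serpinb9e and Serpinb9g.

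Other members of the cluster had smaller ratios after background correction with the offset of 50. Serpinb9 itself, well above background on 1 LIF array, had 0.29 ± 0.16. Serpinb9c, whose window holds the TGACGT printed above, was well above background on 0 LIF arrays and was at least 1.20-fold higher (0.28 ± 0.12, adjusted p = 0.0013). The scanner's ratio gave Serpinb9c 2.61 and Serpinb9 1.62, so the gap to Serpinb9d, Serpinb9e and Serpinb9g depended on the background. Without loess Serpinb9c did not pass (0.15, adjusted p = 0.239). Serpinb6b had 0.72 ± 0.20, and Serpinb6a, whose human form inhibits cathepsin G, did not pass (0.09 ± 0.07, adjusted p = 0.0781). Serpinb6c, at the far side of the Serpinb9 paralogs, was lower: it read 273.0, 256.3, 249.8 and 248.7 in butyrate, against 484.6, 407.5, 434.0 and 450.7 in LIF. The groups did not overlap, and the difference was 1.73-fold (log2 ratio -0.79 ± 0.08, adjusted p = 1.08e-06). Without loess it was -0.28 (adjusted p = 0.0632), or -0.685 relative to the median of all genes. Serpinb1a, an inhibitor of neutrophil elastase, had -0.38 ± 0.10 (adjusted p = 9.87e-05) and Serpinb1c -0.14 ± 0.10 (adjusted p = 0.0198). Without loess the ratio of Serpinb1a was 0.14, and neither gene passed. The tested genes of chromosome 13 had a median of -0.01.

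**Figure D4:**
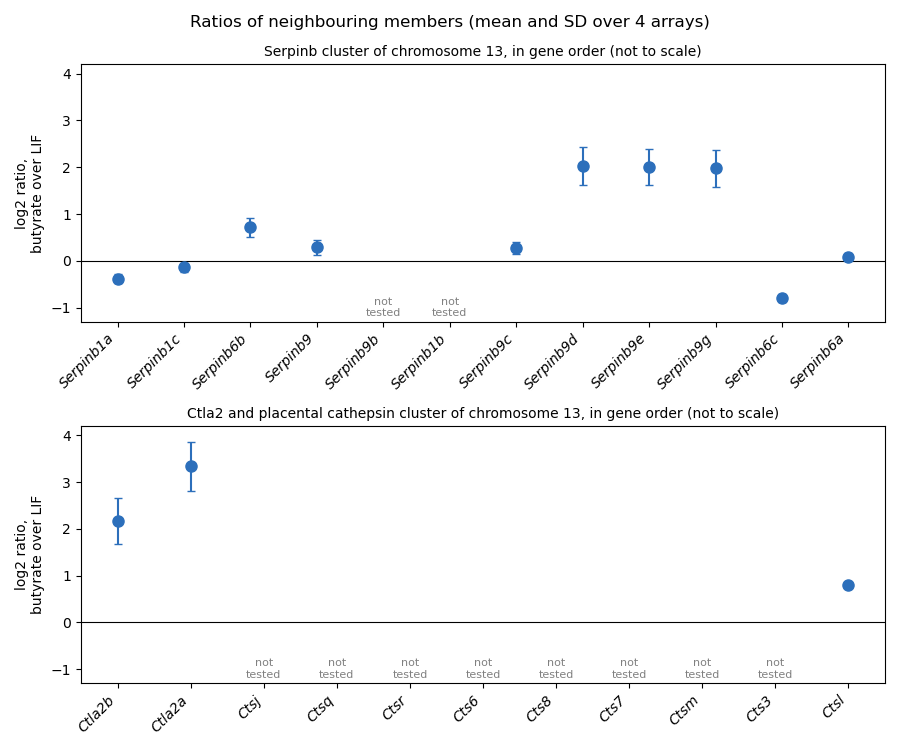
Mean log2 ratio of butyrate over LIF with its SD over 4 arrays (vertical) for members of both chromosome 13 clusters in gene order of the RefSeq annotation, distances not to scale. Serpinb9d, Serpinb9e and Serpinb9g lie near 2 between smaller ratios on both sides, of which that of Serpinb9c, dim in LIF, was 2.61 with the scanner's ratio, and Ctla2b and Ctla2a lie at 2.18 and 3.34 beside 8 placental cathepsins that were not tested; Serpinb1a, below 0 here, was above it without loess.

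In the gene order of the RefSeq annotation, Serpinb9d, Serpinb9e and Serpinb9g follow Serpinb9c and precede Serpinb6c, with Serpinb9f and Serpinb9h, not measured here, among them. In the other cluster Ctla2b and Ctla2a come before the placental cathepsins and Ctsl after them. On chromosome 1, 3 of 12 clade B serpins were tested. Serpinb8, whose human form inhibits furin, was not well above background in LIF and was at least 1.47-fold higher (0.56 ± 0.22). Serpinb5, maspin, had 0.31 ± 0.10, while Serpinb3c did not pass (0.02 ± 0.08). Of the 20 clade A serpins, the family of the liver's plasma inhibitors, 3 were tested. Serpina3m had 0.44 ± 0.13. Serpina5, the inhibitor of protein C, was at least 1.11-fold higher (0.15 ± 0.15, adjusted p = 0.0392), with overlapping groups and no LIF sample well above background. Serpina10 did not pass (-0.08 ± 0.12). Of 16 markers of visceral endoderm and liver, 11 were tested, 6 were higher, led by Sox17 (1.03 ± 0.17), and 3 lower, and Ttr, Apoa1, Apoa4 and Alb were never well above background. They summed to 3824 to 3980 in butyrate and 3018 to 3140 in LIF, and their part in the clade A ratios was not tested.

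Granzymes, which include the target of Serpinb9, were mostly too dim. Of 11 granule genes on the array 4 were tested, and 3 were higher and 1 lower. Gzmd had a log2 ratio of 0.50 ± 0.17 and Gzmm 0.22 ± 0.04. Gzme, not well above background in LIF, was at least 1.33-fold higher. The other 7 were never well above background.

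**Figure D5:**
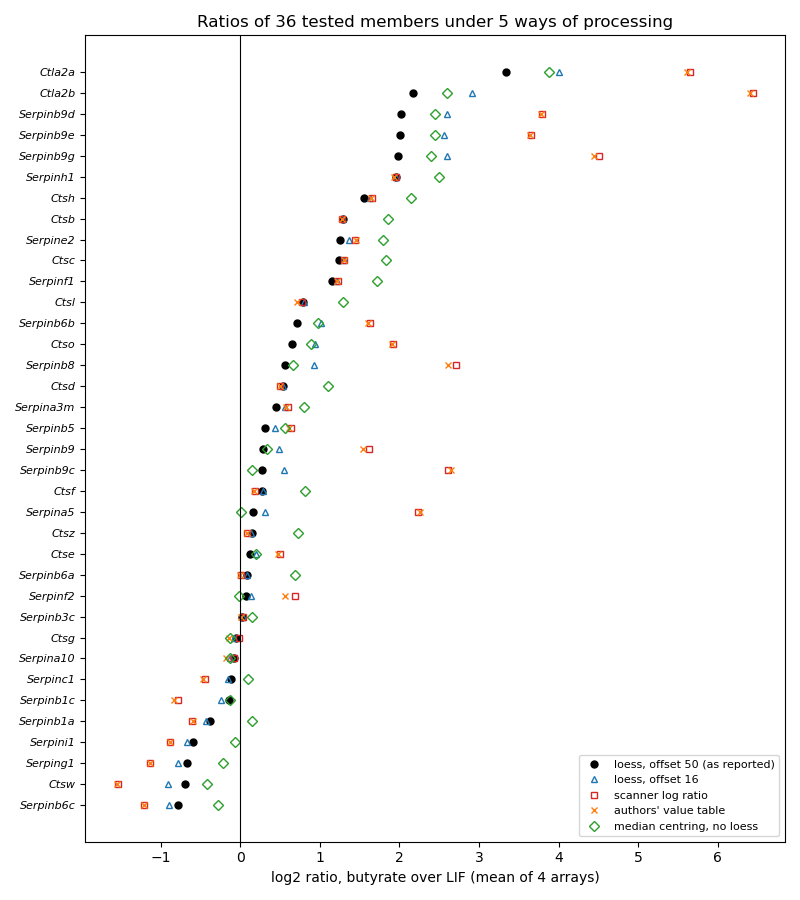
Mean log2 ratio of butyrate over LIF over 4 arrays (horizontal) of 36 tested members under 5 ways of processing. Dim members such as Ctla2b, Serpinb9g, Serpinb8 and Serpina5 move far to the right with the scanner's log ratio and the authors' value table, while Serpinh1 and Ctsb move by less; without loess (diamonds) most bright members lie to the right of their reported ratio, and Serpinb1a and Serpinc1 lie right of 0.

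Over the 18 alternative settings, the log2 ratio of Serpinh1 ran between 1.93 and 2.49. Among dimmer members, that of Ctla2a ran between 3.21 and 5.66, and that of Ctla2b, over 17 settings, between 2.04 and 6.45. Serpina5, called higher at 0.15, ran between 0.00 and 2.26 over 17 settings.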

How the data were processed

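Per the submitters' processing notes Agilent Feature Extraction 9.1 read the arrays. The deposited scanner files give, for each spot and channel, an intensity (mean signal, median background) and, per the file headers, a log10 ratio of Cy5 over Cy3 that this software computed from background-subtracted and dye-normalized signals. The authors' value table holds log2 values. Against the log2 processed signals of the scans, its columns had correlations of at least 0.9996, and the median of each column was 6.487. The tool behind that normalization is not named in these sources.

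Background was corrected by normexp with an offset of 50, from mean signals and local background medians, followed by loess within each array with control spots at weight 0 (R 4.3.3, limma 3.58.1). The offset understates folds of dim genes. Outlier spots (14) were left out, saturated ones kept, and 25674 probes tested, those with signal well above background on 3 or more arrays in either channel. A gene is its brightest tested probe. The test was lmFit and eBayes on 4 log2 ratios against 0, two-sided, with Benjamini-Hochberg adjustment over 17198 genes. Sample intensities are the channel values after loess and Aquantile, and "at least" folds use the dim sample's own signal or the lowest signal well above background, whichever was higher. All arrays lay on 1 slide, so no batch could be tested. The ratio takes out the array, which same-numbered samples share: their deviations from group means correlated, across genes, at 0.16 to 0.31, against -0.21 to 0.10 for other pairs. The test steps were tested on simulated data.

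The members and lists were chosen with earlier results of these data known. The values of 1 member are not reported here, though counts include it. Every other member may be named; of the other lists, up to 3 genes, those with the largest ratios among the ones that passed, are named, besides those said to be chosen later. Probes were named through accession, symbol or synonym in the RefSeq table, and 8455 of 41174 kept the name in the file. Plots came from Python 3.11.15 and matplotlib 3.10.9. Alternatives were other background corrections, normalizations, filters, probe rules, variance models and blocks, the authors' table, and leaving out each replicate.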

Additional observations from a re-analysis of the deposited data

Results flagged for a closer look

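The ratios on the 4 arrays of each of the 37 tested members were searched for an array that stood apart from the others by Dixon's criterion, which chance meets in about 1 in 20 groups. It was met by 2 members, both through array 2. Serpinb9d had a log2 ratio of 1.4103 on array 2, against 2.1627 to 2.2691 on the other arrays. Serpinb6b had 0.4207 on array 2, against 0.7817 to 0.8341 on the others. Array 2 gave the lowest ratio in 9 of the 12 members at least 2-fold higher (75.0%) and in 66.3% of the 854 such genes on the array.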

How the results depend on the processing

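Centring each array on its median without loess changed most: 1 member was lower (7 with loess), 13 serpins passed (20 with loess) and 0 of them were lower (6 with loess), and Serpinb1a (0.1416) and Serpinc1 (0.0955) changed sign, neither passing. Averaging probes turned Serpinc1 to 0.0433. Asking for signal on all 4 arrays in both channels left 9 serpins higher (14 otherwise), with fewer tested. With no filter on dim probes 1 placental cathepsin passed, and it was lower. The fit with no replicate block gave 32 members past the threshold, as with the block, and 12508 of all genes, and changed no member's call. With a random replicate block Serpinb6a passed (adjusted p = 0.0459). Leaving out replicates left 28 to 32 members past the threshold, Ctla2a between 3.21 and 3.59 and Ctla2b between 2.04 and 2.42. Serpina5 was not called without replicate 1 or 3, Serpinb1c without 1 or 3, Ctse without 3 or 4 and Serpinc1 without 3. Serpinb6a passed without 1 and Serpina10 without 4. Apart from the Ctla2 pair, over the 35 other tested members and all alternatives, 594 values kept direction and side of the threshold, 17 lost the call, 6 gained it and 6 changed sign. Of the last, 3 were of members that did not pass either way: Serpinf2 without loess (-0.0135), Serpinb6a in the authors' table (-0.0032) and Serpinb3c without replicate 1 (-0.0049, up to 0.0532 without replicate 3). The causes were not tested. Members near background are limited by signal. The folds of several, such as Ctla2b, Serpinb9g and Serpinb8, differ by over 1.5 times between background corrections. Those of Ctsg, Serpina10 and Serpinb3c differ by less.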
